A study of Verbena bonariensis with 2 samples.

Results

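Of the 63021 transcript clusters counted in Verbena bonariensis leaves, 174 were more than 4-fold more abundant in the library of cadmium-treated plants than in that of untreated plants, while reads were listed for them in both libraries. They were chosen by their levels in the libraries compared: at least 100 estimated counts with cadmium, a count above 0 without it, a ratio above 4 in CPM (counts for every 1000000 counts of the library), and a mean over the libraries of at most 1000 CPM. Without the fold, 16356 clusters met these limits and are called candidate clusters here, so that the 174 clusters made up 1.06% of them. Because the rule used this same contrast, the share, the levels and the ratios describe the chosen clusters and are no evidence of a response.

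The cadmium group was 1 library from leaves of the cultivar Finesse, a month old, treated with 350 µmol/L cadmium. The untreated group was 1 library from leaves of the same cultivar and age. No other treatment or genotype is labelled, and the length of the treatment and the number of plants behind a library are not stated in the sources. The series' design text speaks of 2 kinds of leaves without naming them, so a difference other than cadmium cannot be told apart from it.

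The cadmium library held 16476612 estimated counts and the untreated library 17455521, so that 1 count was worth 0.0607 CPM with cadmium and 0.0573 CPM without. There were no replicates, hence no p-values: every interval is an exact 95% interval that covers counting error only, or treats clusters as independent where it concerns a share of clusters. In whole leaves, more cells of a type and more RNA per cell cannot be told apart.

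Cadmium is a toxic metal with no known general role in land plants, taken up partly through carriers of essential metals such as iron, zinc and calcium. Plants are known to bind it with glutathione and the phytochelatins made from glutathione, to move the complexes into vacuoles, and to raise antioxidant enzymes and chaperones. Gene names are not paired with cluster identifiers in the files, and no annotation was used here, so none of these roles can be given to a cluster, and the labelled tissue could not be checked against marker genes. The clusters are therefore described by level, effective length and place in the assembly, and 2 are named by identifier.

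Together the 174 clusters took a small part of each library. They held 143904 counts with cadmium, 0.873% of that library (0.869 to 0.878), and 19772 counts without, 0.113% (0.112 to 0.115). Summed, this was 8734 CPM with cadmium and 1133 CPM without, a ratio of 7.71 (7.60 to 7.83). Most of this weight lay in few clusters. The 20 clusters with the highest cadmium level held 60.4% of the set's counts with cadmium and 59.2% without, and their summed ratio of 7.87 was near the 7.48 of the other 154.

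Individual clusters covered a wide range of levels. With cadmium their level ran from 6.13 to 543 CPM with a median of 15.1 CPM, while without it the median was 2.06 CPM and the highest value 134 CPM. At least 10 CPM was reached by 118 of the 174 clusters with cadmium and by 23 without, and at least 100 CPM by 20 with cadmium and by 1 without. On the per-length scale, as FPKM (fragments for each kilobase of a cluster, relative to library size), the medians were 19.8 with cadmium and 2.25 without. The ranges of the libraries overlapped, in that the most abundant of these clusters without cadmium stood above the least abundant with it.

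**Figure D1:**
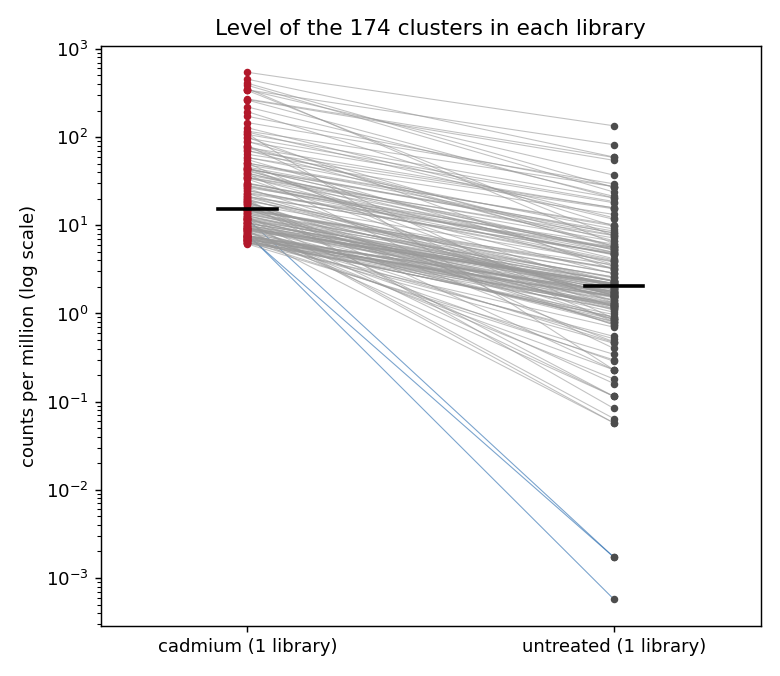
Each line joins the level of 1 of the 174 clusters in the cadmium library (left) and in the untreated library (right), in CPM on a log axis, with black bars at the medians of 15.1 and 2.06 CPM. The 3 blue lines are clusters whose untreated estimated count was under 0.5; the lines slope down by construction, because the rule required it.

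The clusters stood higher in the abundance order with cadmium, without being at its head. Ranked by count among all 63021 clusters, 15 of the 174 were within the top 1000 with cadmium and 0 without. Within the top 5000 there were 53 with cadmium and 6 without, and within the top 10000 there were 92 with cadmium and 19 without. None was within the top 100 in either library. The limit of 1000 CPM on the mean left out a single cluster that met the rest of the rule, at 2778 CPM with cadmium and 315 CPM without, a ratio of 8.81.

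The most abundant cluster of the set was also the one nearest to the fold limit. Cluster-7663.23472 had 8954 counts, 543 CPM and an FPKM of 1926 with cadmium, and 2345 counts, 134 CPM and an FPKM of 479 without. Its ratio of 4.05 (3.86 to 4.24) was the lowest of the 174, and its interval reached below the limit. Its effective length was short, at 282 bases. By count it ranked 193 with cadmium and 1105 without.

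The next clusters in order of level spanned ratios from about 4 to 58. The second had 454 CPM with cadmium and 59.4 CPM without, a ratio of 7.64 (7.16 to 8.16), and an effective length of 2375 bases. The third and the fourth stood at 408 and 387 CPM with cadmium, against 27.0 and 23.8 CPM without, at ratios of 15.1 (13.8 to 16.7) and 16.3 (14.7 to 18.0). These had similar lengths of 807 and 845 bases. The fifth stood at 355 CPM with cadmium and 6.17 CPM without, a ratio of 57.6 (47.5 to 70.1). The eighth had 338 CPM with cadmium and 7.56 CPM without, a ratio of 44.7 (37.6 to 53.5). With over 100 counts behind each untreated value, the intervals of the fifth and the eighth lay wholly above those of the other 8 of the first 10.

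The largest ratio among clusters with at least 10 untreated counts belonged to Cluster-7663.36466. It had 1313 counts, 79.7 CPM and an FPKM of 68.9 with cadmium, and 15.3 counts, 0.875 CPM and an FPKM of 0.76 without, a ratio of 91.1 (56.0 to 166). Its effective length was 1157 bases, and its rank by count was 2045 with cadmium and 35060 without.

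Ratios above that value were also found with under 10 untreated counts. The cluster with the most cadmium reads among these had 1803 counts, 109 CPM, with cadmium and 4 counts, 0.229 CPM, without, a ratio of 478 with an interval from 186 to 1755. It ranked 19 among the 174 by cadmium level. It was singled out after its values were seen, as were the other clusters described here without an identifier.

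Ratios were mostly moderate, with a long upper tail. The median was 6.42 and the quartiles were 5.04 and 13.6. Between 4 and 5 lay 43 clusters, between 5 and 6 lay 30, between 6 and 8 lay 28, and between 8 and 10 lay 12. Above 10 there were 61 clusters and above 20 there were 31. Among the 150 clusters with at least 10 untreated counts, 37 had a ratio above 10 and 12 a ratio above 20, and the median was 6.07. For comparison, the median ratio over all 16356 candidate clusters was 0.984, with quartiles of 0.839 and 1.18.

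The highest ratios rested on almost no untreated reads. Of the 10 clusters above 100-fold, 9 had at most 3 untreated counts. In 3 clusters the untreated estimated count was under 0.5, down to 0.01, which is below 1 read. These had between 127 and 194 counts with cadmium and, against a floor of 3 counts per library, were at least 44.9-fold to at least 68.5-fold higher with cadmium. With these 3 set at that bound the median ratio of the set was still 6.42, since each bound lies above it. The exact counting intervals of these 3 clusters began lower than the bounds, at 35.9, 37.1 and 55.2. Another 8 clusters had 0.5 to 3 untreated counts, and for these the ratio is given with its counting interval. The one of them with the most cadmium counts had 327 with cadmium and 1.46 without, a ratio of 237 with an interval from 61.7 to 13724.

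For 115 of the 174 clusters the whole interval of the ratio lay above 4, which is 0.703% of the candidate clusters, and for the other 59 it reached the limit. Just inside the limit, the 5 lowest ratios ran from 4.05 to 4.15, and just outside it the 5 highest ran from 3.93 to 3.97. The levels on both sides overlapped, though those inside reached higher. Leaving aside the most abundant cluster, those inside had 6.35 to 63.8 CPM with cadmium and 1.56 to 15.4 CPM without, and those outside had 6.75 to 18.6 CPM with cadmium and 1.70 to 4.70 CPM without. At the count limit, the lowest cadmium count inside was 101, and the highest outside was 99.4. With 50 up to 100 cadmium counts a further 130 clusters passed the rest of the rule.

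**Figure D2:**
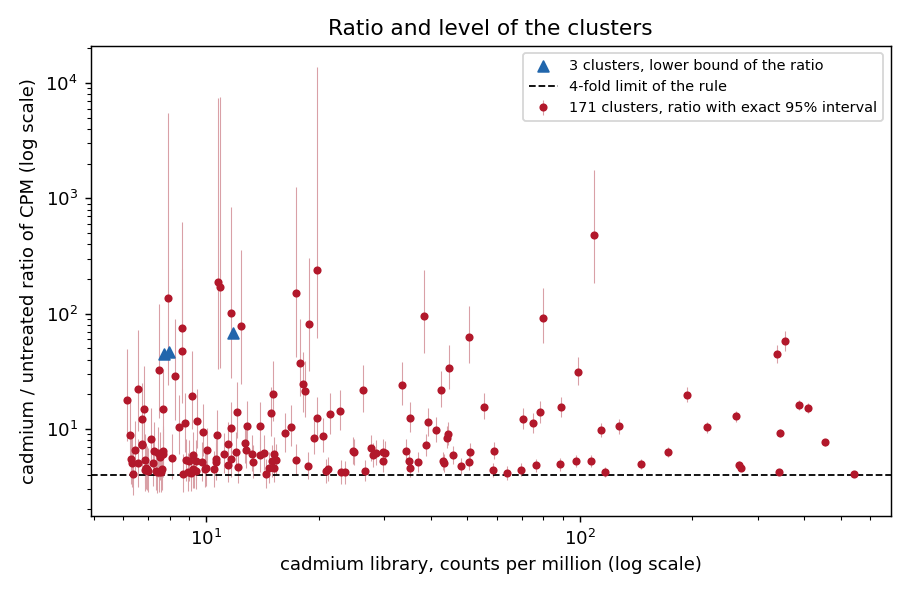
Ratio of cadmium to untreated CPM against cadmium CPM, both on log axes, for 171 clusters with exact 95% counting intervals and for 3 clusters shown as lower bounds against the floor of 3 counts. The dashed line is the 4-fold limit; the most abundant cluster, at 543 CPM, sits on it with a ratio of 4.05, and ratios above 20 occur from below 10 CPM up to 355 CPM.

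Large ratios were found at low and at high levels. Of the 37 clusters with at least 50 CPM under cadmium, 17 had a ratio above 10, 45.9% (29.5 to 63.1). Of the 137 below that level 44 had one, 32.1% (24.4 to 40.6). The rule used both the ratio and the cadmium level, so these shares describe the set and test no link between them. Across the 150 clusters with at least 10 untreated counts, log2 CPM in the cadmium and the untreated library correlated with a Spearman rho of 0.80 (Pearson r 0.86). This is a description across clusters of the same pair of libraries, in a range that the rule itself bounds.

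The share of candidate clusters past the fold was lowest at 20 to 50 cadmium CPM, but the intervals of all the ranges overlapped. The rule also used the cadmium level, so these shares are a description and show no trend. It was 1.44% (1.09 to 1.87) of 3882 candidates at 6 to 10 cadmium CPM, 0.973% (0.713 to 1.30) of 4726 at 10 to 20, 0.792% (0.553 to 1.10) of 4417 at 20 to 50, 0.905% (0.528 to 1.44) of 1879 at 50 to 100, and 1.38% (0.843 to 2.12) of 1452 above that.

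Whether the clusters were shorter than others depended on what they were set beside. Effective length, the cluster length implied by the deposited count and FPKM, was not a term of the rule. Its median was 1096 bases over the 174 clusters (interval of the median 949 to 1236) and 1491 bases over the other 16182 candidates (1471 to 1510). The quartiles were 634 and 1723 bases in the set, against 943 and 2234 bases in the rest. The set's median was below that of the rest in each of the 5 abundance ranges. At 10 to 20 cadmium CPM it was 976 against 1446 bases, and above 100 CPM it was 970 against 1529 bases. These candidates were matched to the set on the level with cadmium, where the set is high by the rule, and the set reached the count limit through that library.

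Set beside clusters of like level without cadmium, the set's median was longer below 2 CPM and shorter from 2 to 20 CPM. At 0.3 to 1 untreated CPM the median was 1021 bases over 21 clusters of the set (750 to 1157), against 406 bases over the 12177 other clusters at that level (400 to 413). At 1 to 2 CPM it was 1111 bases over 48 clusters (701 to 1354), against 770 bases. At 2 to 5 CPM it was 892 bases over 42 clusters (626 to 1201), against 1099 bases, and at 5 to 20 CPM it was 1366 bases over 32 (929 to 1730), against 1385 bases. The direction thus turned only below 2 CPM, and only at 0.3 to 1 CPM did the intervals lie apart. The other clusters had no limit on the cadmium count, so they were not matched to the set in that library. Clusters outside 0.3 to 20 untreated CPM were not compared in this way. The shorter length among the candidates therefore cannot be read as a feature of the set by itself.

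Among candidates, the set and the rest differed at both ends of the length range. Under 500 bases lay 32 of the 174 clusters, 18.4% (12.9 to 25.0), against 7.41% of the rest. Over 2000 bases lay 33, 19.0% (13.4 to 25.6), against 31.1% of the rest. Read the other way, 2.60% (1.78 to 3.65) of candidates under 500 bases passed the fold, 1.38% (1.01 to 1.83) at 500 to 1000 bases, 0.937% (0.721 to 1.20) at 1000 to 2000 bases, and 0.652% (0.449 to 0.915) of longer ones. Within the set, length and ratio showed little relation, with a Spearman rho of -0.053 across the 174 clusters.

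**Figure D3:**
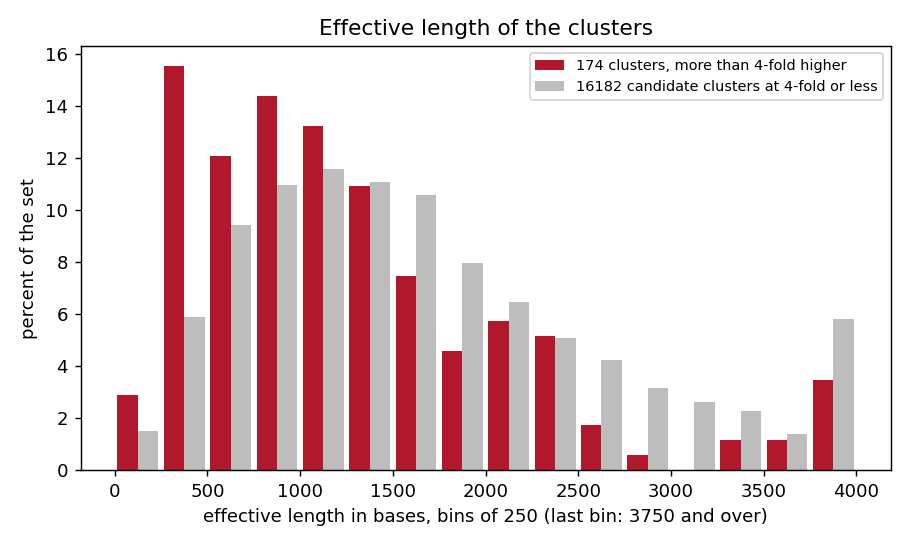
Percent of the 174 clusters (red) and of the 16182 other candidate clusters (grey) in bins of 250 bases of effective length, the last bin holding all from 3750 bases. The red bar stands above the grey one in each bin up to 1250 bases, with 15.5% against 5.89% at 250 to 500 bases.

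A single very short cluster distorted per-length levels. Its effective length was 4.17 bases, so that 247 counts with cadmium and 50 without became FPKM values of 3594 and 711. It ranked 14 by FPKM with cadmium but 9724 by count. The set held 1.50% of the FPKM total with cadmium and 0.242% without, and with this cluster left out 1.15% and 0.172%. For single clusters FPKM and CPM gave nearly the same ratio: over the 166 with an untreated FPKM of at least 0.1, one was 0.956 to 1.03 times the other.

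Identifiers have the form Cluster-x.y, read here as a component of related sequences and a number within it, which no source used here states. Most of the set belonged to the largest component, 159 of 174 clusters, 91.4% (86.2 to 95.1), against 96.3% of the other candidates and 72.4% of all clusters. A further 11 were clusters alone in their component, 6.32% (3.20 to 11.0), against 1.99% of the other candidates and 19.2% of all clusters. The remaining 4 lay in components of 2 to 12 clusters. Clusters alone in their component thus passed the fold in 3.30% (1.66 to 5.83) of 333 candidates, against 1.01% (0.860 to 1.18) of 15736 in the largest component. Other sets held such clusters too. They made up 11.3% (5.80 to 19.4) of the 97 clusters graded downward, which were chosen by the same rule turned round. They were also 12 of the 60 clusters that reached the cadmium count limit with no untreated counts. Outside the set, candidates alone in their component had a median of 8.65 CPM with cadmium, against 19.6 CPM in the largest component.

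The 4 clusters in small components could be set beside the other clusters of their component. None of those others that had reads was lower in CPM with cadmium. In a component of 3, both clusters with reads belonged to the set, with 108 and 124 counts with cadmium against 5.18 and 23 without. The third was at 0 in both libraries. In a component of 4, a cluster of the set had 143 counts with cadmium and 37.4 without. Beside it, others had 63.5 and 57.2 counts with cadmium against 15.1 and 47.5 without, and the last had 11.0 with cadmium and 0 without. In a component of 2, a cluster of the set had 136 counts with cadmium and 5 without. Its partner had 45.6 with cadmium and 47.3 without, a ratio of 1.02 in CPM. For the 159 clusters of the largest component, reads assigned to a similar cluster were not tested.

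Whole counts, within 0.005 of an integer in both libraries, were about as frequent in the set as in the rest. They were found in 67 of the 174 clusters, 38.5% (31.2 to 46.2), against 41.5% of the other candidates. Passing the fold was likewise close, at 0.988% (0.767 to 1.25) of candidates with whole counts and 1.12% (0.917 to 1.35) of those without.

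Within the largest component the clusters gathered at low and at high numbers. The component's numbers run from 0 to 45611, and how they were assigned is not stated in the sources. In the range 0 to 4999, 31 of 744 candidates were in the set, 4.17% (2.85 to 5.86). In the range 40000 to 44999 it was 39 of 923, 4.23% (3.02 to 5.73), and from 45000 on it was 3 of 65. In between, the share was between 0.304% and 1.31% in each range of 5000 numbers. It was lowest at 30000 to 34999, with 6 of 1972 candidates. Ratios of all the component's candidates also spread more widely at low and high numbers. The quartiles of their log2 ratio lay 0.594 apart at 0 to 4999 and at 40000 to 44999. From 45000 on they lay 0.701 apart, and in the ranges between 0.437 to 0.560 apart. Whether this wider spread accounts for the shares past the fold was not tested.

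**Figure D4:**
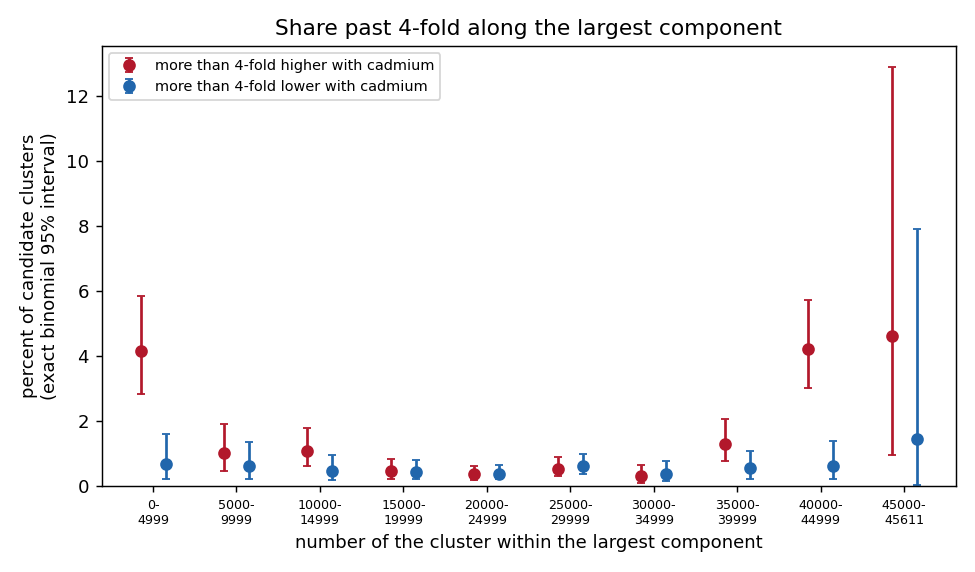
Percent of candidate clusters of the largest component that were more than 4-fold higher (red) or, by the same rule turned round, more than 4-fold lower (blue) with cadmium, in ranges of 5000 numbers (the last is 45000 to 45611), with exact binomial 95% intervals. The red points lie above 4% in the first range and in the last ranges from 40000 and at 1.31% or less between, while the blue points stay between 0.390% and 0.691% up to 44999 and reach 1.47%, from 1 of 68 clusters, in the last.

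Taken as numbers below 5000 or from 40000 on, a division made after the shares were seen, the end ranges held 73 of the 159 clusters, 45.9% (38.0 to 54.0), beside 11.0% of the component's candidates and 23.3% of all its 45612 clusters. The candidates are mostly abundant in both libraries, whereas the set reached the count limit through the cadmium library, so they are no matched comparison. The fold was passed by 4.21% (3.32 to 5.27) of the 1732 candidates at the ends and by 0.614% (0.491 to 0.758) of the 14004 between them. Clusters graded downward, chosen by the same rule turned round, had a share at the ends nearer to that of their candidates. There were 97 of them, 0.57% of 17022 candidates for that direction. Of the 83 in the largest component, 12 were at the ends, 14.5% (7.70 to 23.9), against 10.6% of their candidates. The ends were drawn from the shares of the upward clusters, so they are no even ground for comparing both sets.

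At like levels without cadmium, 18.1% to 32.6% of the component's other clusters had end numbers, against 11.0% of its candidates. The share in the set was above that of the other clusters in each range. At 0.3 to 1 untreated CPM, 12 of 17 clusters of the set had end numbers, 70.6% (44.0 to 89.7), against 32.6% (31.5 to 33.8) of the 6711 other clusters of the component at that level. At 1 to 2 CPM it was 21 of 43, 48.8% (33.3 to 64.5), against 29.9% (28.5 to 31.2) of 4508. At 2 to 5 CPM it was 21 of 39, 53.8% (37.2 to 69.9), against 27.3% (26.2 to 28.4) of 6705. At 5 to 20 CPM it was 10 of 32, 31.3% (16.1 to 50.01), against 18.1% (17.3 to 18.9) of 9481, where the intervals overlapped. In the other 3 ranges they did not. The ends were chosen after the set's own shares were seen, so these intervals are a description and no test. The other clusters had no limit on the cadmium count, so they were not matched to the set in that library. Whether the numbering itself drew on read counts was not tested.

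Within the candidates the share past the fold was higher at the ends at each level with cadmium, which the rule also used. At 6 to 10 cadmium CPM, the fold was passed by 3.03% (1.91 to 4.55) of candidates at the ends and 0.831% (0.527 to 1.24) between them. From 50 CPM on, 24 candidates carried end numbers and 10 of them were in the set, against 27 of 3307 between the ends. Outside the set, the median cadmium level of candidates was 11.1 CPM at the ends and 21.7 CPM between them.

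Among candidates, the contrast between the ends and the middle was wider for clusters with whole counts. Of the candidates with whole counts, 40 of 668 at the ends passed the fold, 5.99% (4.31 to 8.07), against 20 of 5839 between them, 0.343% (0.209 to 0.529). With counts that were not whole, 33 of 1064 at the ends did, 3.10% (2.14 to 4.33), against 66 of 8165, 0.808% (0.626 to 1.03). The clusters of the set at the ends had a median ratio of 8.26 and those between a median of 5.90. A ratio above 10 was found in 32 of 73 at the ends and in 22 of 86 between. The ratio is a value that the rule used. The untreated level of these clusters also differed, with a median of 1.76 CPM at the ends and 3.05 CPM between. Their median lengths were 1024 bases at the ends and 1303 bases between. The candidates as a whole shifted along the numbers in the same sense but slightly: the median log2 ratio was 0.12 in the first range and 0.099 at 40000 to 44999, against -0.074 at 20000 to 24999.

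The set held 2 pairs with consecutive numbers. How frequent such pairs are among the candidates was not counted, so these are described only. One pair had 319 and 1162 counts with cadmium, against 40.2 and 101 without, at ratios of 8.42 and 12.2 and nearly equal lengths of 857 and 854 bases. The other had 175 and 184 counts with cadmium, against 34 and 32 without, at ratios of 5.45 and 6.08 and lengths of 491 and 387 bases.

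The set differed from the clusters graded downward in size, weight and length. The 174 upward clusters summed to 8734 CPM with cadmium and 1133 CPM without, and the 97 downward clusters to 587 CPM with cadmium and 3269 CPM without. The median fold was 6.42 upward (6.02 to 7.64) and 5.40 downward (5.01 to 6.07), and the intervals overlapped. Both sets were chosen by their folds and levels, so the sums and the median folds describe them and test no difference. The downward clusters had a median effective length of 1709 bases (1337 to 2108), taken from the untreated library. This was above the 1096 bases of the upward set, which were 1061 bases when taken from the untreated library. Whole counts were found in 20.6% (13.1 to 30.0) of the downward clusters, against 38.5% of the upward set.

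The clusters with at least 100 cadmium counts and exactly 0 untreated counts, which the rule leaves out, also differed from the set. They were chosen by their counts in the same libraries, so their levels are a description and test no difference. There were 60, with a median of 9.26 CPM and a highest level of 62.9 CPM with cadmium, while 31 clusters of the set exceeded that highest level. Their median length was 1582 bases (1303 to 1896), and 60.0% (46.5 to 72.4) lay in the largest component, against 91.4% of the set. Of the 36 in that component, 14 had end numbers, 38.9% (23.1 to 56.5), beside 45.9% in the set, from which the ends were drawn.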

How the data were processed

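RNA was measured by Illumina sequencing of libraries made from total leaf RNA, per the labels' protocols, with 1 library per group. The deposited estimated counts carry 2 decimals and are not normalized, per the file headers and the values; 43.6% of cadmium and 44.3% of untreated counts were not whole within 0.005. FPKM values, as deposited, are relative to cluster length and library size, a step taken by the authors per the file headers. TopHat2 2.0.9 and Bowtie2 2.0.6 appear in the submitters' processing notes, without a role. Neither an assembler nor a read counter nor a reference sequence is given in the sources used here. Where similar sequences share reads, an estimated count divides them, so near-identical clusters are uncertain.

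CPM used library totals. Effective length was the cadmium count divided by its FPKM and by the library total. For the median over the clusters graded downward, the untreated count, FPKM and total were used instead. Exact (Clopper-Pearson) 95% intervals came from scipy 1.17.1 under Python 3.11.15, for ratios on rounded counts conditional on their sum, and for medians from binomial order statistics. Totals of 16476612 (cadmium) and 17455521 (untreated) counts put the floor of 3 counts at 0.182 and 0.172 CPM. Reads without molecular identifiers are not independent molecules. The edgeR quasi-likelihood test could not be fitted with 1 library per group; edgeR 4.0.16 (TMM) and DESeq2 1.42.0 (size factors, R 4.3.3) gave alternative scalings of rounded counts. The rule and intervals were run on simulated libraries with counting error only, which is the error the intervals assume. That run checks the calculation and says nothing of shared reads or of the spread between plants. The rule, the members and the alternatives were chosen with earlier results of these data known. The clusters named are the one with the highest cadmium CPM and the one with the largest ratio among those with at least 10 untreated counts. Lists of genes were not evaluated, since identifiers were not paired with names.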

Additional observations from a re-analysis of the deposited data

How the results depend on the processing

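No paired analysis was possible because there was 1 cadmium and 1 untreated library, and neither could be left out; the spread between plants is unknown. The number of clusters, 174, was 187 with TMM, 185 with DESeq2 size factors, 175 with FPKM ratios, 175 with no limit on the mean, 171 with rounded counts, and 171 and 150 with at least 1 and 10 untreated counts. Both scalings kept all 174 and added 13 and 11. The number moved to 304 and 102 with at least 50 and 200 cadmium counts, to 293 and 73 with folds of more than 3 and 8, to 115 with the interval above 4, and to 67 with whole counts only, as fewer or more clusters could pass. The median ratio was 5.84 with a pseudocount of 5 counts, against 6.42, and between 6.28 and 6.71 under the other alternatives. The median effective length was 938 bases with whole counts only, against 1096, and between 1007 and 1127 otherwise. By FPKM sums the set held 1.50% with cadmium and 0.242% without, for a part through a cluster of 4.17 bases. The share in the largest component stayed within its interval, at 89.0% to 92.0%, as did the ratios of both named clusters. The share with end numbers, 45.9%, was 56.9% with a fold of more than 8, 66.7% with whole counts only, and 17.0% with 2500 numbers at each end, where 3.98% of candidates lie; it was 38.3% to 46.1% otherwise. That result and the minimum effective length of 200 bases, which kept 171 clusters, were added after seeing the data. Counting depth limits the 24 clusters with fewer than 10 untreated counts most.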
